A study of Mus musculus with 2 samples.

Results

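The serum amyloid A genes Saa1, Saa2, Saa3 and Saa4, the orosomucoid genes Orm1, Orm2 and Orm3, the lipocalin gene Lcn2, the haptoglobin gene Hp and the C-reactive protein gene Crp were followed on 2 Affymetrix expression arrays of mouse liver. Members were all probe sets that the platform annotation assigns to one of these 10 genes, which gave 12 of the 45101 probe sets of the table. Saa1 and Saa4 had 2 probe sets each and the other genes 1. The annotation named 1 gene for each of the 12, so no probe set had to be marked as naming several family members, although 4 carried a name ending (_s_at, _x_at or _a_at) that Affymetrix gives to probe sets able to read several transcripts.

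Both arrays came from precancerous liver of mice on regular chow that carried a hepatocyte-specific Pik3ca transgene, the gene of a catalytic subunit of phosphoinositide 3-kinase. The wild-type array was labelled Pik3caTg;Kdm3aWT and the knockout array Pik3caTg;Kdm3aKO, Kdm3a being the gene of a demethylase of histone H3 lysine 9. There was 1 array per genotype and no array without the transgene. The sources used here do not give age, sex, strain, the promoter of the transgene, the Kdm3a allele or the number of animals behind an array. The comparison addresses how liver with activated kinase signalling differs without Kdm3a before tumours form. With 1 array per genotype there was no test and no error between animals, so each value below describes these arrays.

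Acute phase proteins are plasma proteins that hepatocytes make in larger or smaller amounts after infection or tissue injury. Interleukin-1, interleukin-6 and tumour necrosis factor, released largely by macrophages, reach hepatocytes and act there through NF-kB, C/EBP and STAT3 transcription factors. In the mouse, Saa1, Saa2 and Lcn2 are known for strong induction in liver, haptoglobin and orosomucoid are also present in resting plasma, Saa4 is regarded as the constitutive member of its family, and Crp, a major reactant in humans, responds little.

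Signals were compared as log2 of the knockout over the wild-type value, called the ratio below, and a difference of at least 2-fold was counted as lower or higher. The labels were checked with Kdm3a, whose single probe set read 720 on the wild-type array and 61.6 on the knockout array, 8.56% of the wild-type value. The sources used here do not say where in the gene that probe set or the deletion lies. All 15 measured hepatocyte markers had signals above the floor on both arrays, as the tissue label implies. The arrays shared a trimmed mean signal of 500.004, and their 3′ to 5′ signal ratios were 1.85 and 1.99 for beta-actin and 0.701 and 0.654 for Gapdh, in wild type and knockout. The 3 control probe sets for 18S ribosomal RNA were higher in the knockout array, with log2 ratios from 0.80 to 0.92, and the part of this in the results was not tested. In the absence of replicate arrays, the SD of the ratio among the probe sets that read one gene serves as a yardstick. It was 0.446 over 4958 genes and 0.186 over the 599 genes with several probe sets among the brightest 20%, and it covers error within an array alone.

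The members split into 3 patterns. Lcn2, Orm2 and Saa1 were at least 2-fold lower in the knockout array, Saa4 was at least 2-fold higher, and Saa2, Saa3, Orm1, Orm3, Hp and Crp differed by less than 2-fold. Ratios were negative for 6 of the 10 members, against 52.2% of all genes. Of all 11693 genes measured, 8.96% were at least 2-fold lower and 3.83% at least 2-fold higher. Rescaling on the poly-A controls made these background shares 6.63% and 6.05%, and rescaling on the hybridisation controls made them 10.9% and 2.62%. Read against this background, 3 lower members of 10 is a larger share than the table's, and 1 higher member of 10 is a single gene. The members were chosen with earlier results of these data known, and the part of that choice in these shares was not tested. In the brightest 20% of genes, by mean signal, where 8 of the 10 members lay, 4.4% were lower and 4.49% higher. All 10 genes passed the filter on low values, and all 12 probe sets were above the floor on both arrays. The median log2 ratio was -0.51 over the members and -0.02 over all genes. Scaling on the hybridisation controls moved the median of all genes by -0.14 and scaling on the poly-A controls by 0.19.

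**Figure D1:**
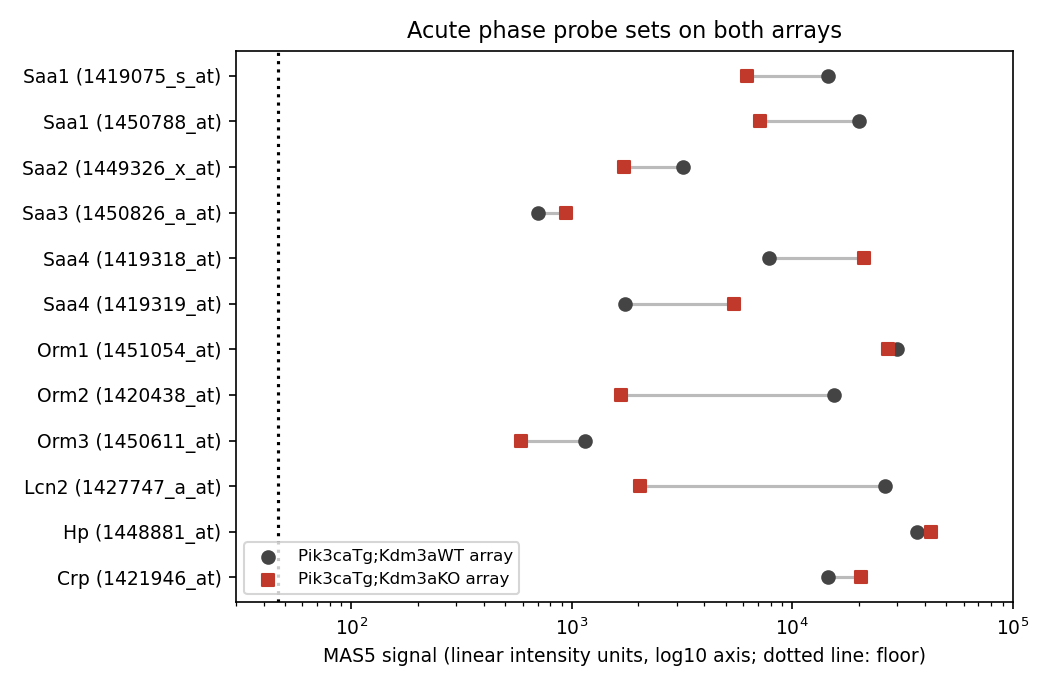
MAS5 signal (log10 axis) of the 12 member probe sets on the wild-type array (dark circles) and the knockout array (red squares), 1 array each, with a dotted line at the floor of 46.5. The widest gaps belong to Lcn2, with 26441 against 2050, and Orm2, with 15432 against 1681, while the squares of both Saa4 probe sets lie to the right of the circles.

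**Figure D2:**
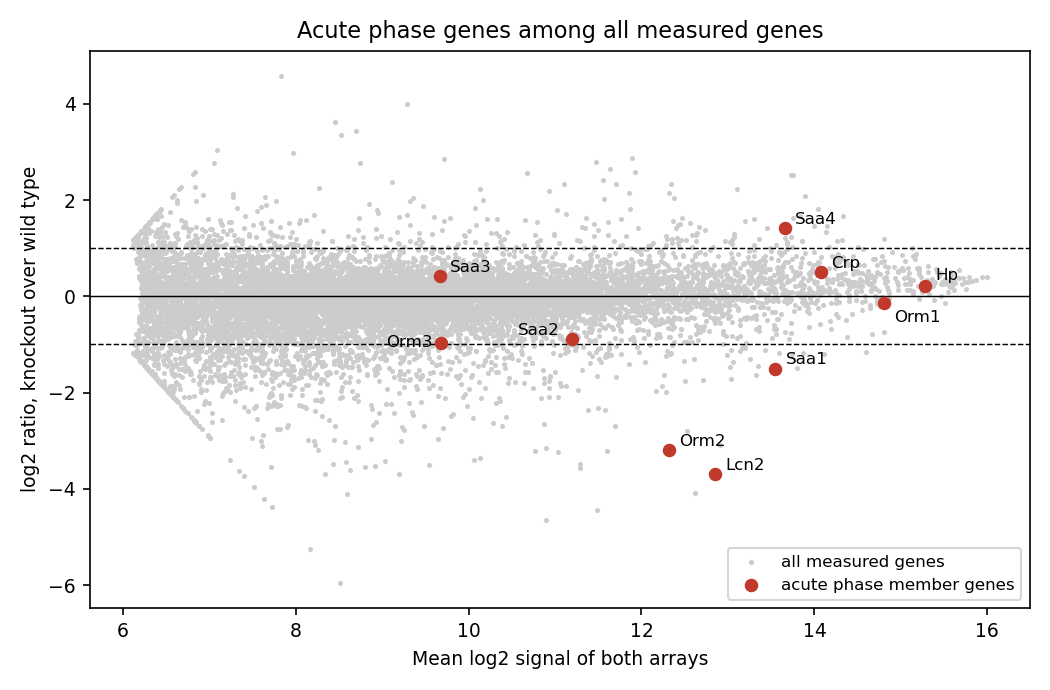
Log2 ratio of knockout over wild type against the mean log2 signal of both arrays for 11693 genes (grey), with the 10 member genes in red and dashed lines at 2-fold. Lcn2 at -3.69 and Orm2 at -3.20 lie far below the grey band at their signal, and Saa4 at 1.42 lies above it.

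Serum amyloid A proteins are small apolipoproteins of high-density lipoprotein. Saa1 and Saa2 encode the inducible hepatic forms, Saa3 a form made by macrophages and other cells as well as liver, and Saa4 the constitutive form. Both Saa1 probe sets were lower in the knockout array. The first read 20128 on the wild-type array and 7109 on the knockout array, a log2 ratio of -1.50 or 2.83-fold lower. The second read 14596 and 6240, a log2 ratio of -1.23. These 2 values differed by less than the SD of 0.446 over all genes and by more than that of 0.186 over bright genes. The single Saa2 probe set read 3200 and 1733, a log2 ratio of -0.89, which is 1.85-fold lower and short of the 2-fold rule. The direction was thus the same in all 3 probe sets of the inducible pair. The second Saa1 probe set and the Saa2 probe set carry name endings of sets able to read several transcripts. How far they read each other's transcripts was not tested, so the shared direction need not hold for each gene.

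The assignment of these probe sets to Saa1 or Saa2 is not settled. The annotation names Saa1 for the second Saa1 probe set, but its accession is that of Saa2 in the RefSeq gene table, and that table lists each gene's symbol among the synonyms of the other. With that probe set counted under Saa2, a choice made after the values were seen, Saa2 had a ratio of -1.23 and 4 members were at least 2-fold lower. The upstream sequences of the pair are given to show how alike the genes are before their start sites. They do not bear on which transcripts a probe set reads, and transcripts were not compared. Of 249 aligned bases before the start site, 238 were identical, or 95.6%. The sequences run 5′ to 3′ and end at the base before the start of the transcript in the RefSeq promoter table of build GRCm38.p6. Capitals mark matches on either strand to the degenerate NF-kB consensus of 10 bases, a C/EBP-type motif (TTNNGNAA) or a STAT3-type motif (TTCNNNGAA).
Saa1 promoter, chr7:46742981-46743230, minus strand: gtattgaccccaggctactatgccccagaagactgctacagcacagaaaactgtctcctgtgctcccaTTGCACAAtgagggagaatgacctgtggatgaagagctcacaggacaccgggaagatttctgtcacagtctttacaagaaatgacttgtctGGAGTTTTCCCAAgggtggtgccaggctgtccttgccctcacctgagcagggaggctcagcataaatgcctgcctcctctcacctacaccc
Saa2 promoter, chr7:46751583-46751832, plus strand: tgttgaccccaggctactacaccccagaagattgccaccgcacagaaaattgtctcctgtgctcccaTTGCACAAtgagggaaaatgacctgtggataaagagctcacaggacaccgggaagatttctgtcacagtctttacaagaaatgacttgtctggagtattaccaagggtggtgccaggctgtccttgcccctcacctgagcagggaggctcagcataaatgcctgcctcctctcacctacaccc
Saa4 promoter, chr7:46732604-46732853, minus strand: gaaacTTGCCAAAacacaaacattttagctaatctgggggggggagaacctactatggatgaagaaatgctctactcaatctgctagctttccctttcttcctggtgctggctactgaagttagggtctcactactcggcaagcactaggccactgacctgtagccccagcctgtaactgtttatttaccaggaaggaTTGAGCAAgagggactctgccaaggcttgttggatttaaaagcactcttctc

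The NF-kB match of Saa1, ggagttttcc, at bases -91 to -82, overlaps a C/EBP-type match at -86 to -79. Neither was found in the Saa2 window, while the C/EBP-type match ttgcacaa stands in both. Saa4, shown because its ratio had the opposite sign, held 2 C/EBP-type matches. Over all 32851 promoter entries, 9.55% of windows of this length held an NF-kB match, 36.8% a C/EBP-type match and 7.02% a STAT3-type match. Among the 8 members with an entry in that table, 2 held the first, 8 the second and 0 the third. The motifs were chosen with the sequences in view, and a match is a description of letters.

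Saa4 was higher in the knockout array by both of its probe sets. The brighter read 7873 on the wild-type array and 21119 on the knockout array, a log2 ratio of 1.42 or 2.68-fold higher. The other read 1744 and 5424, a log2 ratio of 1.64. Of all genes, 151 had a higher ratio than Saa4. The Saa3 probe set read 705 and 941, a log2 ratio of 0.42, which is within the yardstick. The family therefore went both ways on the same 2 arrays: the difference between the ratios of Saa4 and Saa1 was 2.92 on the log2 scale, a 7.59-fold shift of one relative to the other that no scaling by a constant factor can alter. For a difference of 2 ratios the yardstick is 0.630.

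Orosomucoids are heavily glycosylated carrier proteins of plasma, and the mouse has 3 genes for them. Orm2 had the second lowest ratio of the members. Its probe set read 15432 on the wild-type array and 1681 on the knockout array, a log2 ratio of -3.20 or 9.18-fold lower, and 30 of the 11693 genes had a lower ratio. Orm1 read 30041 and 27299, a log2 ratio of -0.14, which is within the yardstick and became positive (0.05) with scaling on the poly-A controls. Orm3 read 1143 and 587, a log2 ratio of -0.96 or 1.95-fold lower, just short of the 2-fold rule. Orm2 and Orm1 thus differed from each other by -3.06 on the log2 scale, an 8.34-fold shift of Orm2 relative to Orm1. The Orm genes are near relatives, and how far their probe sets read each other's transcripts was not tested.

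The upstream sequences of Orm2 and Orm3 are given because these close copies differed by -2.24 in ratio. Of 245 aligned bases, 218 were identical, or 89.0%. Capitals mark the same motifs.
Orm2 promoter, chr4:63362199-63362448, plus strand: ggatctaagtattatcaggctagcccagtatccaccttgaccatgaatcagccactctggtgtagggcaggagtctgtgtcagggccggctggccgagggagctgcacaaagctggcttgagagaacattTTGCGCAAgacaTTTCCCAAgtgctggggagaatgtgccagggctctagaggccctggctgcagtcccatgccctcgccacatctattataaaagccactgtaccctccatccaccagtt
Orm3 promoter, chr4:63355908-63356157, plus strand: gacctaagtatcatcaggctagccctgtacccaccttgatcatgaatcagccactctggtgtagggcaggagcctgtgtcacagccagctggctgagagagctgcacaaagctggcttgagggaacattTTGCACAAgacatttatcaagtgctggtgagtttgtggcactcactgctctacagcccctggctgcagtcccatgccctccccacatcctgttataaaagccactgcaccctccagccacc

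Orm2 held 2 C/EBP-type stretches, ttgcgcaa at -120 to -113 and tttcccaa at -108 to -101, and Orm3 held 1, ttgcacaa at -121 to -114. Both windows also held a TATAAA box, at -33 to -28 in Orm2 and -29 to -24 in Orm3, and an AP-1-type match (TGANTCA) at -207 to -201 and -208 to -202. Neither is capitalised. Of the members with an entry, Crp alone also held these 2 motifs. Over all promoter entries, 7.59% held the TATAAA box on the gene's strand and 6.75% the AP-1-type motif on either strand.

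Lcn2 encodes lipocalin 2, also called neutrophil gelatinase-associated lipocalin, which binds bacterial iron carriers and is made by hepatocytes in the acute phase and by neutrophils for their granules. It had the lowest ratio of the members. Its probe set read 26441 on the wild-type array and 2050 on the knockout array, 12.9-fold lower, with a log2 ratio of -3.69. On the wild-type array 189 probe sets were brighter than it, and on the knockout array 3667. Of all genes, 11 had a lower ratio. The signal left in the knockout array was 7.75% of the wild-type value and 44.1 times the floor, so the gene remained measured on both arrays. Lcn2 was read by 1 probe set, so there was no second reading within the arrays.

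The upstream sequence of Lcn2 is given as that of the member with the lowest ratio. It held 1 C/EBP-type match, ttgctcaa, at -216 to -209, and 1 NF-kB match, ggagtcctcc, at -43 to -34.
Lcn2 promoter, chr2:32387740-32387989, minus strand: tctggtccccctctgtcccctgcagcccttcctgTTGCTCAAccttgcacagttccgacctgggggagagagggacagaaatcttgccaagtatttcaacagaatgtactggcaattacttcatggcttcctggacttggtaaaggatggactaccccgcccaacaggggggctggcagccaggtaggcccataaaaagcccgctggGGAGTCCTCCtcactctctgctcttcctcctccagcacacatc

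Hp encodes haptoglobin, which binds free haemoglobin. Its probe set read 36764 on the wild-type array and 42641 on the knockout array, a log2 ratio of 0.21, below the SD of 0.446 over all genes and above that of 0.186 over bright genes. The value became -0.05 under loess and -0.03 after quantile normalization. Crp encodes a pentraxin that binds bacterial surfaces and activates complement. It read 14516 and 20565, a log2 ratio of 0.50 or 1.42-fold higher. Hp and Orm1 thus had the smallest differences of the members, and 83 and 137 probe sets were brighter than theirs on the wild-type array. Detection flags and saturation flags are not used here, and at such signals a scanner's response can flatten.

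**Figure D3:**
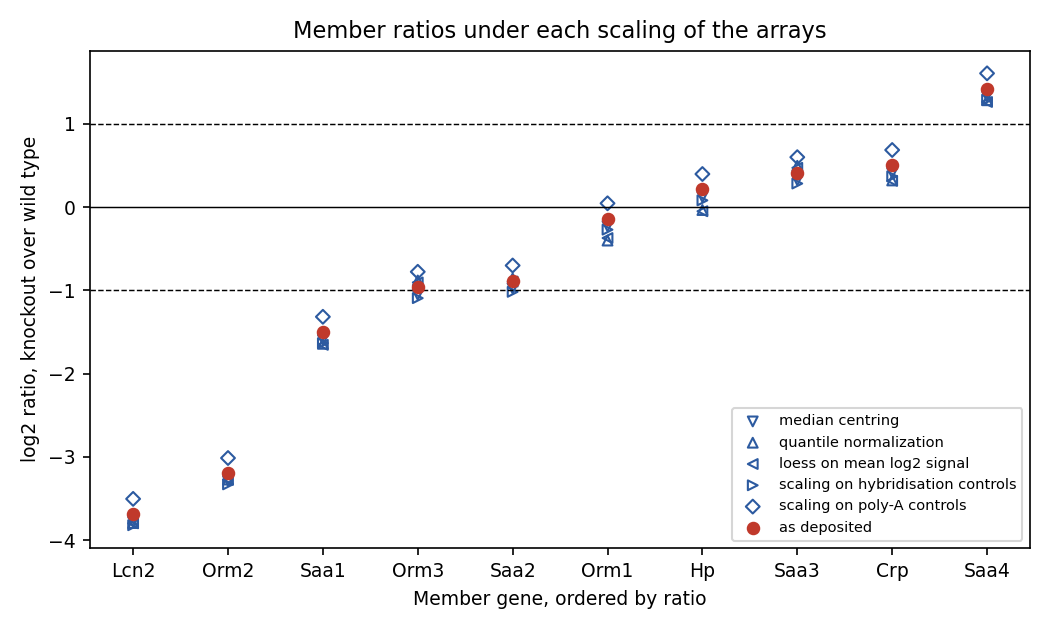
Log2 ratio of the 10 member genes, ordered from lowest to highest, as deposited (red) and under 5 other scalings of the arrays (open symbols), with dashed lines at 2-fold. Lcn2, Orm2, Saa1 and Saa4 stay past 2-fold under each scaling, Orm3 and Saa2 straddle the line, and Orm1 and Hp straddle 0.

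The Saa genes lie side by side on chromosome 7 in the order Saa3, Saa4, Saa1, Saa2, and the Orm genes on chromosome 4 in the order Orm1, Orm3, Orm2, by the RefSeq gene table. The ratios did not follow this order as a block. Saa4 at 1.42 and Saa1 at -1.50 are separated in the table by a Saa pseudogene alone. The measured genes flanking the Saa cluster were Saal1 (-0.15) on one side and Hps5 (-0.59) and Gtf2h1 (0.17) on the other, all within 2-fold. Beside Orm2, Akna, which encodes a centrosome protein, read 139 on the wild-type array and 47.3 on the knockout array, a log2 ratio of -1.56 with the lower value next to the floor. On the far side of Orm1, the collagen gene Col27a1 had a ratio of 0.80. The neighbours of Lcn2 went different ways, with 1110008P14Rik at -1.25 and Ptges2 at 0.12.

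**Figure D4:**
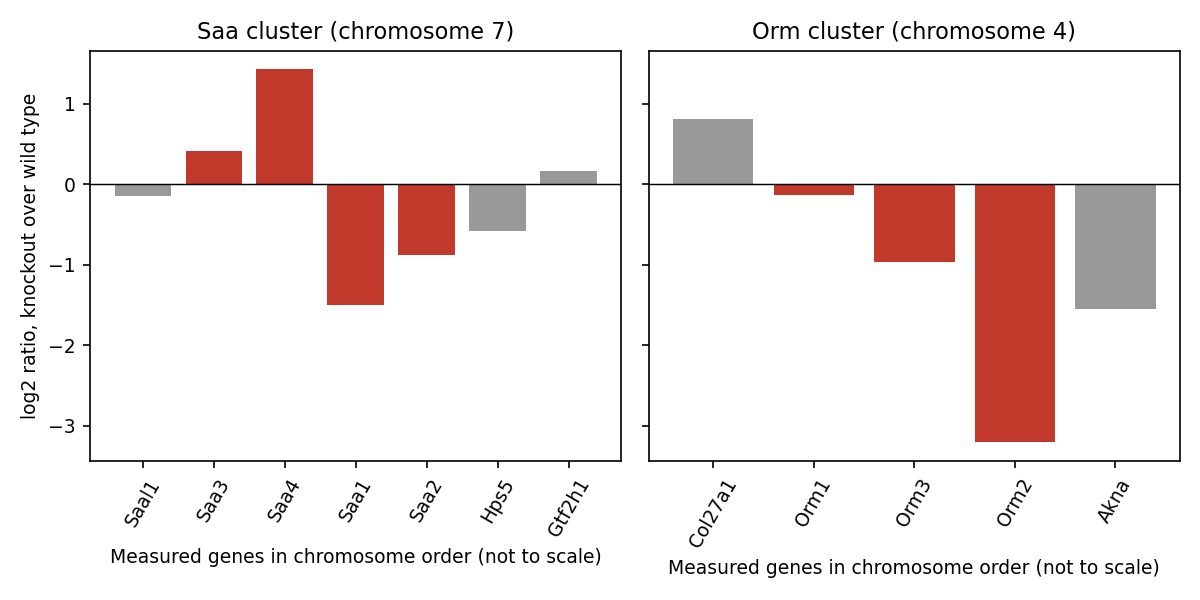
Log2 ratio of knockout over wild type for the measured genes of the Saa cluster (left) and the Orm cluster (right) in chromosome order, not to scale, 1 array per genotype, with member genes in red and flanking genes in grey. Saa3 and Saa4 have positive bars next to the negative bars of Saa1 and Saa2, and the bars of the Orm genes grow from Orm1 (-0.14) to Orm2 (-3.20).

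Other positive acute phase proteins showed no common direction. Among 25 measured, 5 were lower past 2-fold (20%, against 8.96% of all genes). Past 2-fold higher was 1 (4%, against 3.83%), and 19 were between. Their median of 0.12 compares with -0.02 over all genes and 0.12 over the brightest 20% of genes. It ranged from -0.07 to 0.30 under the 5 other scalings. The lower genes were Cd14 (-2.24), a co-receptor for bacterial lipopolysaccharide, the metal-binding Mt2 (-1.63) and Mt1 (-1.20), the pentraxin Apcs (-1.30), and Il1rn (-1.23), the interleukin-1 receptor antagonist. The 2 probe sets of Mt1 differed, at -1.20 and 0.02, and the 3 of Il1rn ranged from -1.23 to -0.80. Apcs, the serum amyloid P gene and the main acute phase pentraxin of the mouse, read 15418 on the wild-type array and 6245 on the knockout array. The higher gene was Hamp, the iron hormone hepcidin, which read 5669 and 32742, a ratio of 2.53. The fibrinogen genes Fga (0.49), Fgb (0.50) and Fgg (0.53) had nearly the same positive ratio, and Mbl2 (0.70), a mannose-binding lectin, was next below Hamp. Mt1, Il1rn and the fibrinogen genes Fga and Fgb were named after their values were seen.

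Negative acute phase proteins, which hepatocytes make less of during a reaction, were within 2-fold in 11 of 14 cases. The other 3, or 21.4%, were higher past 2-fold, against 3.83% of all genes. The median was 0.33, against 0.12 over the brightest 20% of genes, and 13 of the 14 ratios were positive, against 47.8% of all genes. The share of positive ratios among bright genes alone was not computed, and most genes of this list are bright. The 3 higher genes were Serpina6 (1.56), which encodes the corticosteroid carrier, Igfals (1.18), the labile subunit of the circulating growth factor complex, and Igf1 (1.09), whose 4 probe sets ranged from 0.94 to 1.20. Serpina6 read 3071 on the wild-type array and 9080 on the knockout array. The genes within 2-fold included Alb (0.27) and Ahsg (0.18), and Cpn1 (-0.03) was the single gene below 0. Hepatocyte markers in general stood at a median of 0.41, with 15 of 15 positive and 2 past 2-fold, Tat (1.22) and Hpd, which read 25381 and 50886. Alb, Apoa1, Ttr and Ahsg stand on both lists. Under the 5 other scalings the negative acute phase median ranged from 0.07 to 0.51 and the hepatocyte median from 0.13 to 0.60. The counts of positive ratios were not recomputed under these scalings, and small positive ratios depend on them. The part of hepatocytes in these values was not tested.

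The cytokines that drive the response were near the limit of measurement. Of 12 on the arrays, 5 passed the filter, and Il6 and Tnf were below the floor on both arrays. Il1b read 193 on the wild-type array and 210 on the knockout array, a ratio of 0.12, and Il1a read 129 and 89.5, a ratio of -0.53. Clcf1 had the lowest ratio at -1.84, though its other probe set stood at 0.52, Ctf1 had 0.17, and Lif the highest at 0.74. Clcf1 read 191 on the wild-type array and 53.3 on the knockout array, and Lif 55.5 and 92.9. Each of these 2 genes passed the filter through 1 array alone, the one where it was brighter. Liver RNA thus gave no measurable Il6 or Tnf on either array at this floor.

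Receptors for these cytokines went both ways, with 2 of 14 lower and 2 higher past 2-fold. This was 14.3% each, against 8.96% lower and 3.83% higher of all genes. Their median was -0.11 and ranged from -0.25 to 0.07 under the other scalings. Il6ra, the interleukin-6 receptor chain, read 672 on the wild-type array and 1475 on the knockout array, a ratio of 1.13, with its other probe set at 1.28. Il1rap, the accessory chain of the interleukin-1 receptor, had a ratio of 1.24, but its 4 probe sets ranged from -0.03 to 1.24, and Il1r1 had 0.87. The lower receptors were Il22ra1 (-2.06) and its partner Il10rb (-1.16), and Tlr4 (-0.87, with its other probe set at -1.50), the lipopolysaccharide receptor, was next. Il22ra1 read 232 on the wild-type array and 55.5 on the knockout array, and passed the filter through the former alone. With the floor at the 60th percentile or the filter at the 70th, the count of lower receptors was 1. By their brightest probe sets the 14 measured signal transducers lay within 2-fold, with a median of -0.19. Other probe sets of 3 of them were past it, at 1.25 for Stat3, -1.31 for Tyk2 and 1.61 for Map3k7. Stat3 (0.49), Traf6 (0.32) and Tyk2 (0.05) were highest, and the NF-kB subunits Nfkb2 (-0.61) and Relb (-0.59) and the kinase scaffold Ikbkg (-0.47) were lowest.

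Transcription factors of hepatocytes that act on acute phase genes were within 2-fold in 12 of 13 cases, with a median of 0.30. The exception was Onecut1 (1.34), whose 2 probe sets went opposite ways, at -0.87 and 1.34. Maz (0.71) and Nr0b2 (0.68) followed, and Cebpg (-0.76), Atf6 (-0.46) and Cebpd (-0.21) were lowest. Cebpb, the C/EBP member best known for the acute phase and named after its value was seen, read 10718 on the wild-type array and 13239 on the knockout array, a ratio of 0.30. Lower values past 2-fold were found for 4 of 14 feedback genes and higher ones for 0. The former share was 28.6%, against 8.96% of all genes, and the list's median was -0.33. The 4 were Tnfaip3 (-1.75), Nfkbie (-1.64), Irak3 (-1.48) and Bcl3 (-1.33), the first 3 of which restrain NF-kB signalling, while Bcl3 is an inhibitor-like partner of NF-kB subunits. Irak3 read 142 on the wild-type array and 50.9 on the knockout array, next to the floor, and passed the filter through the former alone. The other probe set of Tnfaip3 stood at -0.56 and that of Nfkbie at 0.61, while Nfkbib stood at -0.16 by its brightest probe set and 1.62 by the other. Zfp36 (0.38), Nfkbia (0.36) and Socs2 (0.32) were the highest. Socs3, the STAT3 target that limits interleukin-6 signalling, read 862 and 632, a ratio of -0.45, and was named with Bcl3 after values were seen.

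**Figure D5:**
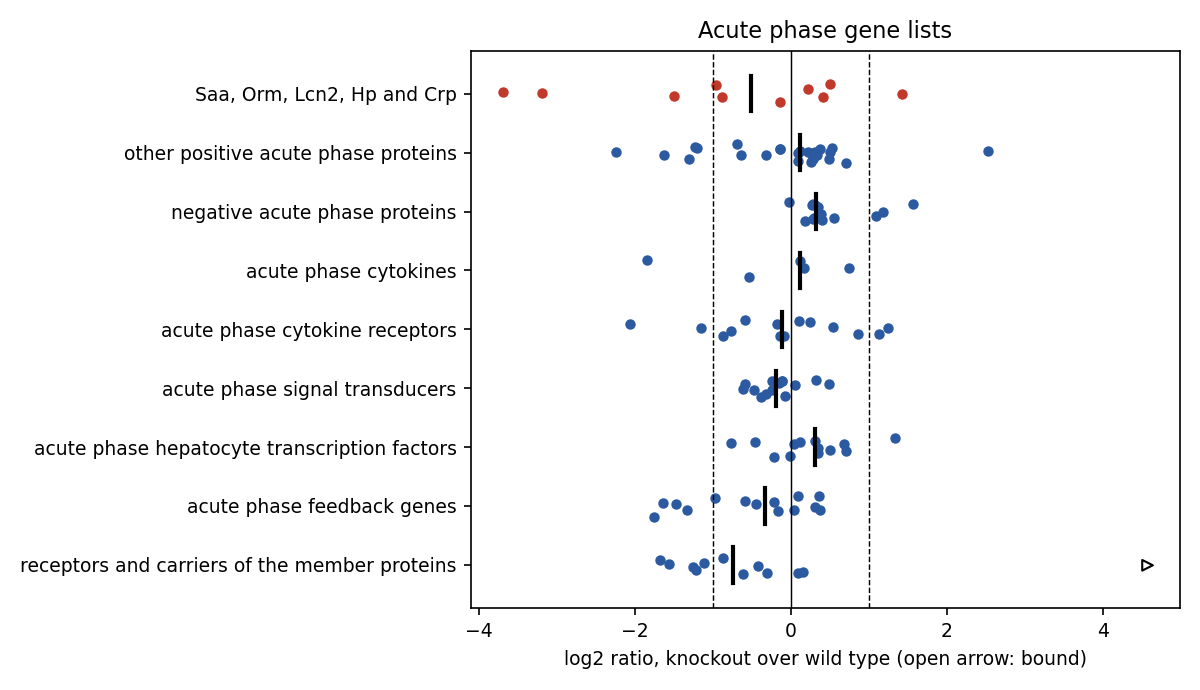
Log2 ratio of knockout over wild type for each measured gene of the members (red) and of 8 acute phase lists (blue), with black bars at list medians and dashed lines at 2-fold; vertical scatter is random. Members spread from -3.69 to 1.42, signal transducers stay within 2-fold by the brightest probe set of each gene, which is the one plotted, and the open arrow is Cd163, a bound because its wild-type value did not reach the floor.

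Among 12 measured receptors and carriers of the member proteins, 5 were lower past 2-fold and 1 was higher. These shares were 41.7% and 8.33%, against 8.96% and 3.83% of all genes, and the median was -0.75. The antibody receptors Fcgr1 (-1.68), Fcgr4 (-1.56) and Fcgr3 (-1.25), a class that also binds pentraxins, had the lowest ratios, though the other probe set of Fcgr1 stood at -0.43. Tlr2 (-1.21) and the scavenger receptor Cd36 (-1.12), both reported to bind serum amyloid A, were also past 2-fold and were named after values were seen. Cd163, the macrophage receptor for haptoglobin complexes, did not reach the floor on the wild-type array and read 1110 on the knockout array, at least 23.9-fold higher. Lrp1 (0.16) and Scarb1 (0.09), the high-density lipoprotein receptor, had the next highest ratios. Slc22a17 (-0.42), described as a lipocalin 2 receptor, was within the yardstick, and Lrp2 did not pass the filter.

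Markers of other cells that can make these proteins were set beside the members. For their counts past 2-fold, the shares over all genes were 8.96% lower and 3.83% higher. In whole liver, fewer cells of a type and less RNA per cell cannot be told apart. Of 12 neutrophil markers on the arrays 7 were measured, 2 of them at least 2-fold lower and 1 higher, and their summed signal was 2652 on the wild-type array and 1232 on the knockout array. S100a9 (-2.18) and S100a8 (-1.73) were the lower ones, Mmp9 (1.33) was the higher one and Csf3r (0.52) came next. Mmp9 read 52.7 on the wild-type array and 132 on the knockout array, and passed the filter through the latter alone. It was not counted as higher with the floor at the 60th percentile or the filter at the 70th. Of the granule genes that define neutrophils, Ngp read 210 and 166 on the wild-type and the knockout array, Ltf 75.9 and 79.0, and Mpo 64.3 and 47.5, next to the floor of 46.5. Elane went the other way, below the floor on the wild-type array and at 100.2 on the knockout array. Camp read 104 on the former and lay below the floor on the latter, and the chemokine receptor gene Cxcr2 was below it on both.

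Of 17 measured macrophage markers, 10 were at least 2-fold lower and 3 higher. These shares were 58.8% and 17.6%, against 8.96% and 3.83% of all genes. The summed signal was 73736 on the wild-type array and 39479 on the knockout array. With scaling on the poly-A controls 6 were lower. Gpnmb (-4.12) and Trem2 (-2.38) were lowest, and Cd163 and Marco (at least 6.01-fold higher) highest. The 3 higher ones, Cd163, Marco and Timd4, were below the floor on the wild-type array and passed the filter through the knockout array alone, so they had to be higher. Laptm5, counted as lower, had 4 probe sets from -1.51 to 0.27. Adipocytes are another source of Saa3. Of 7 genes of the adipocyte list on the arrays 4 were measured, 3 of them lower, with sums of 31164 and 8516. The lower ones were Fabp4 (-2.80, with 3 probe sets from -2.80 to -0.98), Lpl (-1.87) and Cidec (-1.69), and Cidea stood at -0.14. Adipoq and Lep were below the floor on both arrays, so the list does not show that adipocytes were present. Which cells gave the other signals was not tested. Of 8 cholangiocyte markers, 6 were lower and 1 higher, with sums of 5421 and 1320. Of the lower ones, Krt19, Krt7 and Sox9 passed the filter through the wild-type array alone, which fixed their direction. Cd24a (-3.40) and Krt19 (-1.95) were lowest and Onecut1 (1.34) and Krt23 (0.04) highest, and Epcam, counted as lower at -1.75, had its other probe set at -0.08.

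Stellate cell and fibroblast markers were lower in 9 of 14 cases, or 64.3%, against 8.96% of all genes. Their sums were 42956 and 20999, with Col3a1 (-3.56) and Col1a2 (-3.21) lowest and Reln (0.03) highest. Des and Thy1, counted as lower, passed the filter through the wild-type array alone, which fixed their direction. Endothelial markers were lower in 1 of 11 cases, Vwf (-1.20), with sums of 9862 and 8844. That share, 9.09%, was near the 8.96% of all genes. Of 9 lymphocyte markers 1 was lower, Nkg7 (-1.29), and 2 higher, Ighm (3.44) and Jchain (1.99), with sums of 1150 and 2661. Nkg7 passed the filter through the wild-type array alone, which fixed its direction. Ighm alone read 126 and 1371, and its 5 probe sets ranged from 0.19 to 3.44. The median of these markers was 0.18, and it ranged from -0.76, with scaling on the hybridisation controls, to 2.72, with a filter at the 70th percentile. The part of these cell types in the member ratios was not tested.

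The genes closest to each of the 3 members with the largest differences, in log2 ratio and mean log2 signal over the 2 arrays, were sought among genes above the floor on both. Predicted genes and unnamed clones were passed over. Nearest to Lcn2 were Gstm3 (-4.09), Tmsb10 (-3.09) and Orm2 itself. Nearest to Orm2 were Fabp4 (-2.80), Tmsb10 and Serpina12 (-3.22), and nearest to Saa1 were Lgals1 (-1.44), Mt2 (-1.63) and Plin2 (-1.48). Likeness over 2 arrays rests on a single difference.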

How the data were processed

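The values are MAS5 intensity values on a linear scale as deposited, per the submitters' processing notes. Per the labels' protocols, cRNA was made from total liver RNA by the standard Affymetrix method. The sources used here give no MAS5 settings, no detection calls and no genome build. The number of arrays, 2, limits the precision. Probe sets were named through the platform annotation (34945 named 1 gene, 932 several, 9160 none) and 34741 were matched to RefSeq gene identifiers (GRCm38.p6, used for names, gene order and promoter sequences). Values under 46.5, the 40th percentile of both arrays pooled without the 64 controls, were set to that value, which makes a ratio a bound ("at least"). Probe sets with a mean signal of at least 73.7, the median, were kept, and a gene took its brightest one. A gene under 73.7 on 1 array passed through the other array alone, which fixed the direction of its ratio. Among others this held for Clcf1, Lif, Il22ra1, Nfkb2, Irak3, Mmp9, Krt19, Krt7, Sox9, Des, Thy1 and Nkg7. Ratios are log2, computed here with pandas 2.3.3 in Python 3.11.15, and were checked on simulated data.

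Every member is named. From each list up to 3 highest and 3 lowest ratios were named, from each marker list 2 of each, and exceptions are marked in the text. The members and lists were chosen with earlier results of these data known. Alternatives were other scalings (loess span 0.3), filters, floors, summaries, probe sets and size rules.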

Additional observations from a re-analysis of the deposited data

Results flagged for a closer look

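The control probe sets for 18S ribosomal RNA, which enter no gene comparison, had a higher signal in the knockout array, with a median log2 ratio of 0.86. The 3 probe sets read 9476, 20888 and 12038 in the wild-type array and 17184, 36270 and 22736 in the knockout array. With 1 array per genotype there was no spread to set this against.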

How the results depend on the processing

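With 1 array per genotype, leaving out a replicate was not possible. No paired analysis was possible because each group held 1 array. The count of members at least 2-fold lower was 3, and it became 5 with scaling on the hybridisation controls and 5 with a 1.5-fold rule. Saa2 and Orm3 were the genes added in both. The count at least 2-fold higher was 1 and became 0 with a 3-fold rule. The other 27 of 30 recomputed counts of members stayed within 1.5 times. Without probe sets of the name endings _s_at, _x_at, _a_at or _f_at, Lcn2, Saa2 and Saa3 had no value, which left 2 lower members. The probe sets of Lcn2 and Saa3 end in _a_at and that of Saa2 in _x_at. Changes of filter or floor could move neither member counts nor member ratios, since every member probe set lay above them. Of 127 recomputed member ratios, those fixed ones included, 127 moved by less than 0.446, the spread between probe sets of a gene. The ratios of Orm1 (-0.40 to 0.05) and Hp (-0.05 to 0.40) spanned 0. Of 576 recomputed list values, 534 stayed within these bounds and 42 moved. Among the latter, hepatocyte markers past 2-fold went from 2 to 1 under 4 scalings. Lower macrophage markers went from 10 to 6 with poly-A scaling. With a filter at the 70th percentile, which keeps fewer genes, higher macrophage markers went from 3 to 1. With that filter, lower fibroblast markers went from 9 to 5 and lower feedback genes from 4 to 1. Lower cholangiocyte markers went from 6 to 3 with that filter, with the floor at the 60th percentile and without probe sets of those name endings. Other moved counts had 2 or fewer genes on either side. Over all genes, the 1048 lower and 448 higher became 564 and 210 with that filter, and the higher count became 707 with poly-A scaling. The alternative with probe sets naming several members was not run, since none did. Signals near the floor limit what can be said of cytokines.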
